A study of Homo sapiens with 10 samples.

Results

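TNFAIP6, PTX3 and CD44 are genes of the hyaluronan matrix. They were taken by name, as the probe sets whose single gene symbol in the platform annotation was one of these 3. That gave 4 of the 8793 probe sets on the array and 3 of its 7713 genes with 1 symbol: TNFAIP6 (206026_s_at), PTX3 (206157_at) and CD44 by a pair of probe sets (204490_s_at and 212063_at). The genes had been picked from these same data for a late rise after cross-linking of CD64, so their values in the comparisons that involve CD64 are a description and carry no test. The rule had no threshold.

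Hyaluronan is a long sugar polymer of the extracellular matrix that becomes ordered into cable-like and coat-like structures in inflamed tissue. TNFAIP6, also called TSG-6, is a secreted protein that binds hyaluronan and transfers the heavy chains of inter-alpha-inhibitor onto it, and PTX3, a long pentraxin that also recognises microbes and complement C1q, joins these heavy chains and helps to cross-link the polymer. CD44 is the main hyaluronan receptor on leukocytes. Monocytes and macrophages are known to make TNFAIP6 and PTX3 in response to inflammatory signals and to carry CD44 throughout.

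All RNA came from U937, an established human line of monocytic cells, and every group, the control included, had been differentiated with IFN gamma. The groups were the control, to which the labels give no cross-linking and no time, CD32 cross-linked for 2 h, CD32 cross-linked for 6 h, CD64 cross-linked for 2 h and CD64 cross-linked for 6 h. CD32 is the low-affinity and CD64 the high-affinity Fc gamma receptor for IgG. With 2 arrays per group (n = 2 throughout) the 5 groups made 10 arrays. The labels used here give neither the cross-linking agent nor the IFN gamma dose. Nor do they say whether paired arrays came from separate cultures, so a p-value reflects only how far these arrays spread, which may be technical. Among the CD32 2 h arrays, 1 has a source name with another receptor number, and its title was followed. U937 is a single line, so the arrays hold no spread between donors.

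The promoters of the 3 genes are shown because TNFAIP6 and PTX3 both reached their highest signal in the CD64 6 h group and CD44 did not. Each window runs from 250 bases before to 50 bases after the start of the gene, 5′ to 3′ on the plus strand of GRCh38.p14, from RefSeq. Capitals mark matches to the motifs searched on both strands.
TNFAIP6 (chr2:151357342-151357641): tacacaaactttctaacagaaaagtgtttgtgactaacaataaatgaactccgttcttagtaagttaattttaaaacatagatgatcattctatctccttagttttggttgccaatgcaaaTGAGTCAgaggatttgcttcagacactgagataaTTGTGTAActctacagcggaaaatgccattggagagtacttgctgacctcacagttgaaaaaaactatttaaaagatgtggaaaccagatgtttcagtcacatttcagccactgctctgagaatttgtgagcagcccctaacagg
PTX3 (chr3:157436600-157436899): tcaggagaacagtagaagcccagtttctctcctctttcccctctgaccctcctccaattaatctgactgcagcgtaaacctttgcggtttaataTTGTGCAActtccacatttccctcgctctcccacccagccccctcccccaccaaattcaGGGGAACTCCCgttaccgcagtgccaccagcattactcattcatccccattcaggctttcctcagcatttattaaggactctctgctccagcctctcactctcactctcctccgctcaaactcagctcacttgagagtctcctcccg
CD44 (chr11:35138921-35139220): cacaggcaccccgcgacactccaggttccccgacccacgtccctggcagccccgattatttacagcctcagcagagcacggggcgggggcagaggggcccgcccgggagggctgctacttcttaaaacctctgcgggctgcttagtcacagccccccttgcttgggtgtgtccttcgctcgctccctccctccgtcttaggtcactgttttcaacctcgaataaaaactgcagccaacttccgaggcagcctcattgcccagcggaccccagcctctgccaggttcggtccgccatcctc

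The motifs searched were AP-1 (TGANTCA), C/EBP (TTNNGNAA), GAS (TTCNNNGAA), the ISRE (a pair of GAAA runs with 2 bases between them), the TATA box (TATAAA) and the 10-base NF-kappaB consensus. The TNFAIP6 window held 1 AP-1 match, TGAGTCA, from -129 to -123 relative to the start, and 1 C/EBP match, TTGTGTAA, from -95 to -88. The PTX3 window held 1 C/EBP match, TTGTGCAA, from -156 to -149, and overlapping NF-kappaB matches within GGGGAACTCCC, from -97 to -87. The CD44 window held none of the 6 motifs. Among 35116 RefSeq promoter windows of the same length, 7.71% held the AP-1 motif, 36.8% the C/EBP motif, 11.3% the NF-kappaB consensus, 7.66% the GAS motif, 3.57% the ISRE and 11.5% the TATA box. A C/EBP match was thus the shared feature of the TNFAIP6 and PTX3 windows and also a common one. These matches describe letters in a window and not bound sites.

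The arrays had been scaled alike, with a mean signal of 500.5 to 500.6 after removal of the lowest and highest 2% of probe sets, and their median signals lay between 101 and 152. Before log2 was taken, every lower value was raised to a floor of 37.5, which is the 25th percentile of the signals. Arrays of a group correlated at 0.964 to 0.977 across probe sets, and the control pair was the least alike. Control probe sets moved with the groups: the mean log2 signal of 18 probe sets for added bacterial and phage transcripts was 10.63 in control, 11.25 and 12.36 at 2 h and 6 h of CD32, and 10.87 and 9.32 at 2 h and 6 h of CD64, and the actin 3′ over 5′ ratio ran 1.30, 1.56, 1.99, 1.81 and 1.12 in that order. The highest signal of an array also differed. Its group mean was 28012 in control, 27526 and 37486 at 2 h and 6 h of CD32, and 30354 and 15202 at 2 h and 6 h of CD64. Labelling or hybridisation and group therefore cannot be told apart in any comparison here.

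Of 14 monocyte and myeloid markers 10 were on the array, and 8 of these were above the floor on all 10 arrays, among them the integrin ITGAM (368 to 784), SPI1 (98.2 to 589) and the Fc receptor chain FCER1G (2734 to 4342). CD14 was above the floor on 3 arrays and the granule enzyme MPO on 2. Fibroblasts are a strong source of TNFAIP6 and PTX3 in tissue, and 9 of 10 fibroblast markers were on the array. LUM and COL6A3 were at or under the floor on all 10 arrays, COL1A1 and COL3A1 were above it on 2, and PDGFRB on 4. FBN1 was above it on 10 (73.8 to 150), COL1A2 on 9 (up to 241), FAP on 7 (mean 45.2 in control and 92.8 in CD64 6 h) and POSTN on 6. The summed fibroblast signal was 317 to 593 in control and 388 to 465 in CD64 6 h, so these groups overlapped. Of 9 endothelial markers 8 were on the array, with a summed signal of 1722 to 1763 in control, 2419 to 2467 and 1840 to 2437 at 2 h and 6 h of CD32, and 2364 to 2435 and 2192 to 2331 at 2 h and 6 h of CD64, so control was below every other array. PECAM1 (970 to 2083) and ENG (204 to 540), which monocytes also express, were the endothelial markers above the floor on all arrays. VWF and CDH5 were each above it on 2 arrays and CLDN5 on none of the 10. The summed monocyte signal was 13215 to 14115 in control, 13425 to 14448 and 16144 to 16271 at 2 h and 6 h of CD32, and 10656 to 11264 and 12267 to 13800 at 2 h and 6 h of CD64. The part of these marker differences in the results was not tested.

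TNFAIP6 was near the floor in control and highest 6 h after CD64 cross-linking. The control arrays read 78.1 and 6.5. The CD32 arrays read 351 and 413 at 2 h, and 466 and 355 at 6 h. The CD64 arrays read 79.8 and 62.0 at 2 h, and 1196 and 1202 at 6 h. The levels thus fell into 3 steps: control and CD64 2 h, which overlapped, then CD32 2 h and CD32 6 h, which overlapped, and then CD64 6 h, which was above all other arrays. In these bulk samples more cells with the transcript and more transcript per cell cannot be told apart.

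After CD32 cross-linking TNFAIP6 rose at both times. It was 7.04-fold above control at 2 h (log2 difference 2.82 ± 0.341 SE, 95% interval 2.06 to 3.57, adjusted p = 0.000293, limma) and 7.51-fold at 6 h (2.91 ± 0.341, adjusted p = 0.000161). Between 2 h and 6 h of CD32 the log2 difference was 0.09 ± 0.341 (95% interval -0.66 to 0.85, adjusted p = 0.945), and the arrays overlapped. The SE of 0.341 pools the spread of all 5 groups and is not that of the CD32 arrays alone. The log2 SD was 0.748 in control, 0.165 and 0.278 at 2 h and 6 h of CD32, and 0.257 and 0.005 at 2 h and 6 h of CD64. Because control replicate 2 lay under the floor, the folds against control depend on the floor: with a floor of 10.8 the log2 differences were 3.71 at 2 h and 3.81 at 6 h of CD32, and 1.28 and 5.37 at 2 h and 6 h of CD64. The calls against control were kept without each single array, with an adjusted p of at most 0.00676, but were lost when only the 4 arrays compared were fitted (adjusted p = 0.0813 at 2 h and adjusted p = 0.0692 at 6 h). The comparisons with control use the same control arrays as the values by which the genes were picked.

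After CD64 cross-linking TNFAIP6 was near control at 2 h and at its highest at 6 h. At 2 h its log2 difference from control was 0.38 ± 0.341, with overlapping arrays, and this difference was -0.15 without control replicate 2 and 0.91 without control replicate 1. At 6 h it was 4.47 ± 0.341, or 22.2-fold above control, and 3.94 without control replicate 2. From 2 h to 6 h of CD64 the log2 difference was 4.09, or 17.0-fold, against the 0.09 of CD32 over the same interval. Set against CD32 at the same time, CD64 was 5.42-fold lower at 2 h (log2 -2.44) and 2.95-fold higher at 6 h (log2 1.56). The order of the receptor means was therefore reversed between the time points. TNFAIP6 had been picked for its late rise after CD64, and this reversal was not tested.

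**Figure D1:**
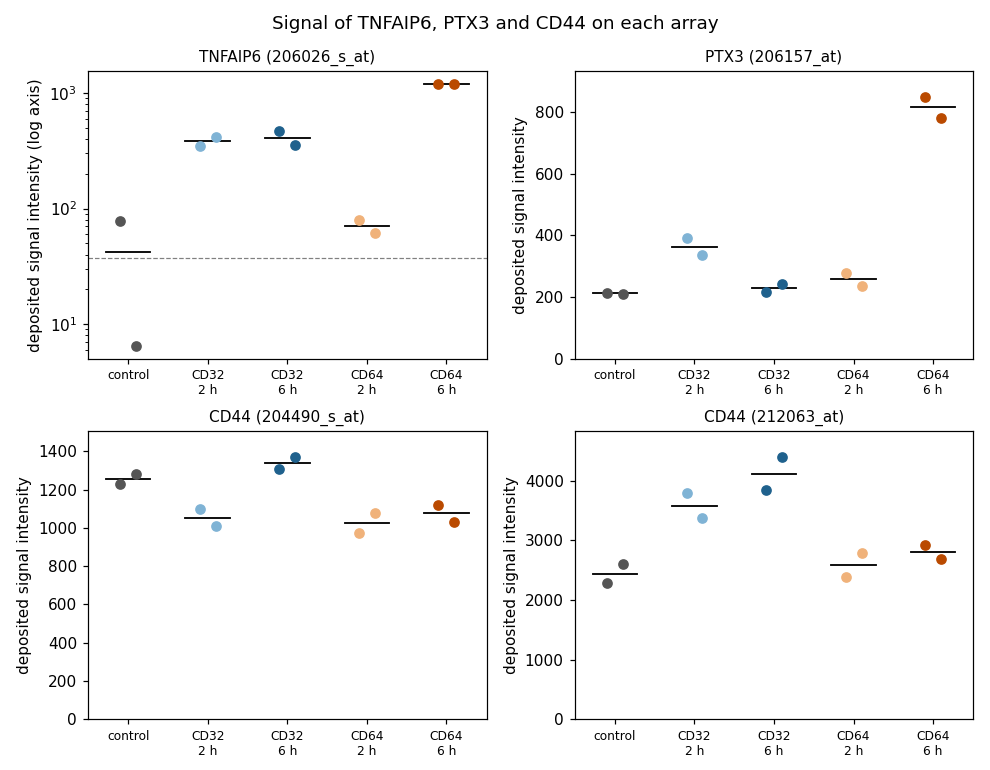
Deposited signal of each probe set (vertical axis, log scale for TNFAIP6 with the floor dashed, linear from 0 for the others) on the 2 arrays of each group (points), with the group mean as a bar. TNFAIP6 sits at 1196 and 1202 on the CD64 6 h arrays and PTX3 at 848 and 781, each above all other arrays, whereas CD44 by 212063_at is highest on the CD32 arrays.

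PTX3 was well above the floor in every group and had a smaller range. Its control arrays read 214 and 209. Its CD32 arrays read 391 and 336 at 2 h, and 217 and 242 at 6 h. Its CD64 arrays read 277 and 237 at 2 h, and 848 and 781 at 6 h. The CD64 6 h arrays stood above all others, the CD32 2 h arrays came next, and the CD32 6 h and CD64 2 h arrays overlapped just above control.

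PTX3 rose 1.71-fold 2 h after CD32 cross-linking (log2 0.77 ± 0.188 SE, adjusted p = 0.0181, limma). At 6 h its log2 difference from control was 0.12 ± 0.188 (95% interval -0.30 to 0.53, adjusted p = 0.734). Between 2 h and 6 h of CD32 the log2 difference was -0.66 ± 0.188 (95% interval -1.07 to -0.24). It did not pass the threshold (adjusted p = 0.0767, unadjusted p = 0.00521), although both 6 h arrays were below both 2 h arrays, an order found in 27% of all probe sets tested. The call at 2 h was lost without control replicate 2 (adjusted p = 0.0570), without CD32 2 h replicate 1 (adjusted p = 0.126) and with only the 4 arrays compared (adjusted p = 0.120). After CD64 the log2 difference from control was 0.28 ± 0.188 at 2 h and 1.94 ± 0.188, or 3.84-fold, at 6 h. From 2 h to 6 h the log2 difference of PTX3 was -0.66 for CD32 and 1.67 for CD64. At 6 h the CD64 arrays were 3.55-fold above the CD32 arrays (log2 1.83), and at 2 h they were 1.41-fold below (log2 -0.50).

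CD44 did not show the late rise after CD64 for which the genes had been picked. By 212063_at its control arrays read 2282 and 2603. The CD32 arrays read 3792 and 3378 at 2 h, and 3842 and 4398 at 6 h. The CD64 arrays read 2384 and 2787 at 2 h, and 2917 and 2682 at 6 h. The 4 CD32 arrays were above all the others, CD64 2 h overlapped both control and CD64 6 h, and the log2 difference from 2 h to 6 h of CD64 was 0.12 ± 0.116.

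By this probe set CD44 rose 1.47-fold after 2 h of CD32 (log2 0.55 ± 0.116 SE, adjusted p = 0.00807, limma) and 1.69-fold after 6 h (0.75 ± 0.116, 95% interval 0.50 to 1.01, adjusted p = 0.000987). The difference between 6 h and 2 h was 0.20 ± 0.116 (95% interval -0.06 to 0.46, adjusted p = 0.411). The call at 6 h was kept without each single array, with an adjusted p of at most 0.0144. The call at 2 h was lost without control replicate 1 (adjusted p = 0.0660), without CD32 2 h replicate 1 (adjusted p = 0.0852) and without the variance trend (adjusted p = 0.0730). With only the 4 arrays compared both were lost (adjusted p = 0.0919 at 2 h and adjusted p = 0.0589 at 6 h). CD64 was 1.39-fold below CD32 at 2 h (log2 -0.47) and 1.47-fold below it at 6 h (log2 -0.56).

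The other CD44 probe set, 204490_s_at, disagreed with this. Its control arrays read 1229 and 1284. Its CD32 arrays read 1098 and 1009 at 2 h, and 1307 and 1369 at 6 h. Its CD64 arrays read 971 and 1076 at 2 h, and 1119 and 1033 at 6 h. All values lay within a narrow range, with the CD32 2 h and both CD64 groups overlapping below control. The log2 difference from control was -0.26 ± 0.102 at 2 h of CD32 (95% interval -0.48 to -0.03, adjusted p = 0.130, limma) and 0.09 ± 0.102 at 6 h (95% interval -0.13 to 0.32, adjusted p = 0.599). Between 6 h and 2 h of CD32 it was 0.35 ± 0.102 (adjusted p = 0.0843), which passed the threshold under cyclic loess normalization (0.43, adjusted p = 0.0364). After CD64 it was -0.30 at 2 h and -0.22 at 6 h. At 6 h of CD32 the 95% intervals of the 2 probe sets, -0.13 to 0.32 and 0.50 to 1.01, did not overlap. CD44 makes many spliced forms, and which of them each probe set reads is not given in the sources used here.

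**Figure D2:**
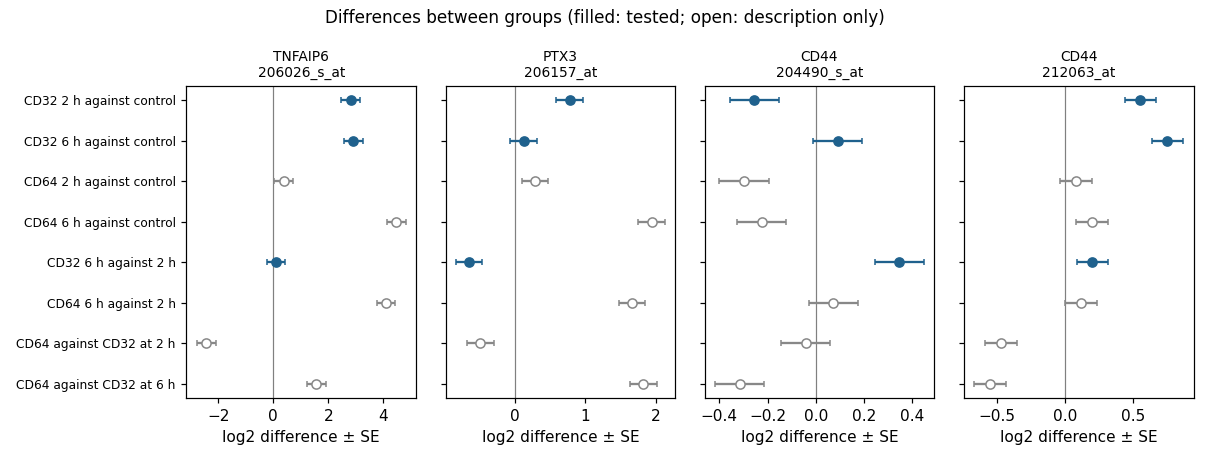
Log2 difference of each probe set (horizontal axis, a scale of its own in each panel, with SE bars) in 8 comparisons. Filled points were tested and open points are a description. TNFAIP6 is at 2.82 and 2.91 for CD32 against control and at 0.38 and 4.47 for CD64, and PTX3 is at -0.66 for CD32 and 1.67 for CD64 between 2 h and 6 h.

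Over the 4 probe sets, 3 rose and 0 fell after 2 h of CD32, where 8.86% of the 7708 probe sets tested rose and 6.6% fell. After 6 h of CD32, 2 rose and 0 fell, where 9.63% of all rose and 10.3% fell. Between 2 h and 6 h of CD32 limma called 0 of 4, where 4.46% of all probe sets were called in either direction. At an unadjusted p under 0.05 (limma) were 2 of the 4, and 1437 of all 7708 probe sets tested. All 4 passed the filter on low values. Across the 10 arrays TNFAIP6 and PTX3 had a Pearson r of 0.78, the CD44 probe sets 0.40 with each other, TNFAIP6 and CD44 by 212063_at 0.47, and PTX3 and the same CD44 probe set -0.05. These correlations describe 5 groups of 2 arrays and are given without a test. The 10 arrays include those of CD64 by which the genes were picked, so the r of TNFAIP6 with PTX3 follows in part from the picking.

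The genes whose log2 signal followed each member most closely over the 10 arrays were different for each. For TNFAIP6 they were IL1RN, the interleukin-1 receptor antagonist (r = 0.982), ENPP2 (0.979), the splicing factor SRSF1 (0.979), the exonuclease ISG20 (0.978) and the kinase NAGK (0.972). The mean signal of IL1RN was 289 in control, 1123 and 1119 after CD32 at 2 h and 6 h, and 332 and 2946 after CD64 at 2 h and 6 h, in an order of groups like that of TNFAIP6. For PTX3 they were ZNF189 (0.990), the serine synthesis enzyme PSPH (0.986), the transcription factor MEF2A (0.970), the replication licensing factor CDC6 (0.960) and DAD1 (0.958). PSPH read 167 in control, 276 and 157 after CD32, and 190 and 520 after CD64, at 2 h and 6 h in turn. For CD44 by 212063_at they were the inhibitory receptor LILRB2 (0.952), TNFAIP2 (0.939), the RNA-binding protein PUM2 (0.938), the stress transcription factor ATF4 (0.932) and PHC2 (0.931). TNFAIP2 read 559 in control, 963 and 1365 after CD32, and 470 and 516 after CD64. All are measured on the same 10 arrays. The genes listed for TNFAIP6 and PTX3 share with them the high CD64 6 h signal for which these 2 were picked.

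**Figure D3:**
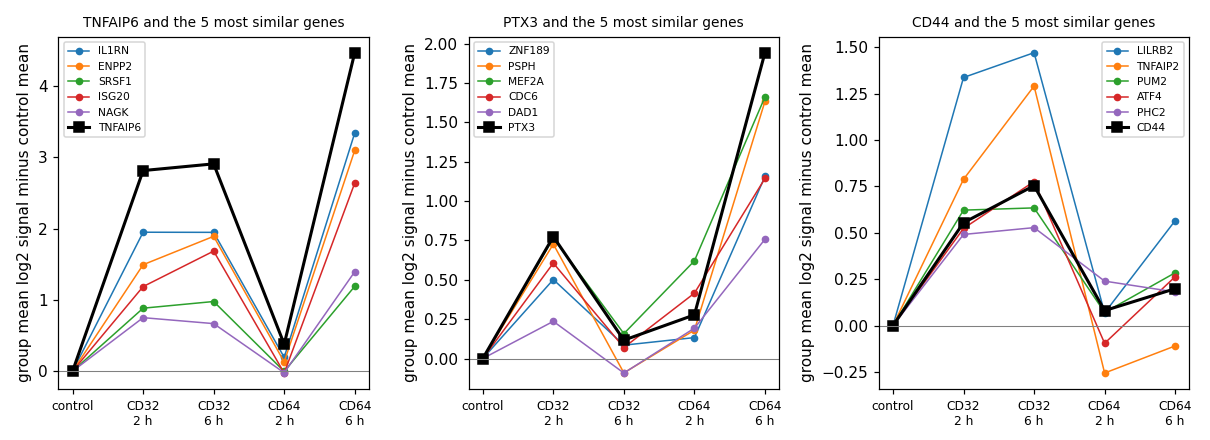
Group mean log2 signal minus the control mean (vertical axis) for each gene (black squares) and the 5 genes with the highest Pearson r to it over 10 arrays (coloured points), across the 5 groups. TNFAIP6 reaches 4.47 and PTX3 1.94 at CD64 6 h, while CD44 (212063_at) peaks at 0.75 at CD32 6 h. Lines join groups for legibility.

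Other genes of hyaluronan metabolism, of CD44 function and of the pentraxin family were described from 6 lists. Of 73 listed genes 51 were on the array and 43 were tested. After 2 h of CD32 4 of the 43 rose and 1 fell, or 11.6% called against 15.5% of all probe sets, and leaving out CD32 2 h replicate 1 took the 5 calls to 3. At 6 h of CD32, 6 rose and 3 fell, or 20.9% against 20%. After 2 h of CD64 2 rose and 0 fell, or 4.65% against 15.9%, with 1 called without either CD64 2 h array. After 6 h of CD64 7 rose and 5 fell, or 27.9% against 20.6%. These 12 calls became 7 without control replicate 2, 4 without CD64 6 h replicate 1 and 6 without CD64 6 h replicate 2. With only the arrays compared the calls numbered 2, 0, 0 and 3 in the same order: UGDH and HMMR at 2 h of CD32, and UGDH, HMMR and TLR4 at 6 h of CD64. The median log2 difference of the 43 was -0.15, 0.11, -0.08 and 0.03, beside -0.03, -0.08, -0.13 and -0.04 over all probe sets. Set against the whole array, the share called in the lists was lower at 2 h of either receptor. It was near that of the array at 6 h of CD32 and higher at 6 h of CD64. The lists were chosen with earlier results of these data known, and the differences in share were not tested. For the alternative runs the share over all probe sets was not computed. The shares compared are thus those of the main run only.

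Among enzymes of hyaluronan synthesis and its sugar precursors, 4 of 11 genes were tested. UGDH, which makes UDP-glucuronate, read 239 and 254 in control, 598 and 645 at 2 h and 399 and 708 at 6 h of CD32, and 326 and 487 at 2 h and 693 and 739 at 6 h of CD64. The CD32 and CD64 arrays were all above the control arrays. UGDH rose 2.52-fold after CD32 2 h (adjusted p = 0.00540), 2.16-fold after CD32 6 h (adjusted p = 0.0112) and 2.90-fold after CD64 6 h (adjusted p = 0.00155, limma). The first of these was lost without CD32 2 h replicate 1 (adjusted p = 0.0550) and the second without control replicate 2 (adjusted p = 0.0638) or CD32 6 h replicate 2 (adjusted p = 0.0877). The last was kept in every alternative run. GFPT1, the first enzyme of the hexosamine pathway, read 407 and 557 in control, 779 and 859 at 2 h and 693 and 733 at 6 h of CD32, and 424 and 438 at 2 h and 724 and 766 at 6 h of CD64. Its CD64 2 h arrays lay within the control range and its CD64 6 h arrays above it. GFPT1 rose in the 3 groups above control, by log2 differences of 0.78, 0.58 and 0.65 (adjusted p = 0.00598, 0.0217 and 0.0121, limma). Single arrays ended each of these calls: leaving out CD32 2 h replicate 2 ended that at 2 h of CD32 (adjusted p = 0.0584), control replicate 2 or either CD32 6 h array that at 6 h of CD32 (adjusted p of 0.0714 to 0.104), and control replicate 2 or either CD64 6 h array that at 6 h of CD64 (adjusted p of 0.0528 to 0.0857). UGP2 went the other way: it read 3469 and 3953 in control and 2819 and 2903 in CD64 6 h, and fell 1.29-fold there (adjusted p = 0.0284, limma). This call was lost in 4 runs with changed processing, among them cyclic loess (adjusted p = 0.0753, limma). It was also lost without control replicate 2 (log2 -0.28), CD64 6 h replicate 1 (log2 -0.39) or CD64 6 h replicate 2 (log2 -0.35). The hyaluronan synthase HAS2 had no array above 38.9 and was not tested.

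Of the genes of hyaluronan breakdown 5 of 10 were tested. CEMIP2, a hyaluronidase of the cell surface, was under the floor in control (8.5 and 19.6) and read 96.6 and 114 in CD32 6 h and 86.6 and 121 in CD64 6 h. It rose at least 2.79-fold and at least 2.73-fold (adjusted p = 0.0135 and 0.0142, limma), of which the first was lost when CD32 6 h replicate 2 was left out (adjusted p = 0.0631) and the second when CD64 6 h replicate 2 was (adjusted p = 0.103). The lysosomal enzyme GUSB fell 1.34-fold after CD64 6 h (adjusted p = 0.00663) and 1.28-fold after CD32 6 h (adjusted p = 0.0181, limma). The call at CD64 6 h was lost without CD64 6 h replicate 1 (log2 -0.34). That at CD32 6 h was lost without control replicate 1 (log2 -0.30) or CD32 6 h replicate 2 (log2 -0.30). Without the variance trend both were lost (adjusted p = 0.0785 and 0.126, limma). Each gene moved in one direction at 6 h of either receptor.

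Of other hyaluronan binders and receptors 11 of 18 were tested. TLR4, the lipopolysaccharide receptor that has also been linked to hyaluronan fragments, read 175 and 189 in control, 347 and 389 at 2 h and 344 and 392 at 6 h of CD32, and 289 and 333 at 2 h and 489 and 581 at 6 h of CD64. It rose 2.02-fold, 2.02-fold, 1.71-fold and 2.93-fold in that order (adjusted p = 0.00466, 0.00341, 0.0200 and 0.000212, limma). The rise at CD64 2 h was lost without control replicate 1 (adjusted p = 0.0742) or either CD64 2 h array (adjusted p = 0.0515 and 0.125), and the rise at CD64 6 h was kept in every alternative run. HMMR, a hyaluronan receptor that is also a mitotic spindle protein, read 1280 and 1305 in control, 813 and 817 at 2 h and 662 and 877 at 6 h of CD32, and 1206 and 1317 at 2 h and 829 and 898 at 6 h of CD64. Its log2 differences were -0.67, -0.76 and -0.58 in the 3 groups below control, and it fell in each (adjusted p = 0.00625, 0.00215 and 0.00928, limma). The last of these was lost without control replicate 2 (log2 -0.57) or CD64 6 h replicate 1 (log2 -0.53), and without the variance trend (adjusted p = 0.0563, limma). C1QBP, which binds hyaluronan and C1q, fell 1.62-fold after CD32 6 h (adjusted p = 0.00120) and 1.29-fold after CD64 6 h (adjusted p = 0.0389, limma), the latter called no longer without any one of 6 single arrays. The C1QBP call at CD64 6 h was also lost under cyclic loess (adjusted p = 0.0701, limma) and without the variance trend (adjusted p = 0.169, limma).

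Of genes tied to CD44, namely linkers to the actin skeleton, ligands and shedding proteases, 12 of 13 were tested. EZR, the linker ezrin, read 574 and 640 in control, 840 and 899 at 2 h and 902 and 904 at 6 h of CD32, and 566 and 596 at 2 h and 850 and 911 at 6 h of CD64. It rose 1.43-fold, 1.49-fold and 1.45-fold in CD32 2 h, CD32 6 h and CD64 6 h (adjusted p = 0.00984, 0.00421 and 0.00578, limma). The call at CD32 2 h was lost without control replicate 2 (adjusted p = 0.0516) or CD32 2 h replicate 1 (adjusted p = 0.0773), and that at CD64 6 h without CD64 6 h replicate 1 (adjusted p = 0.0596). SPP1, the CD44 ligand osteopontin, rose 1.49-fold after CD32 6 h (adjusted p = 0.00274, limma), a call kept without each single array but lost with only the arrays compared (adjusted p = 0.0730). ADAM10, a protease that sheds CD44, rose 1.28-fold after CD64 2 h (adjusted p = 0.0126) and 1.19-fold after CD64 6 h (adjusted p = 0.0438, limma), but these calls were lost without 2 and 9 of the 10 single arrays. The call at CD64 2 h was also lost under quantile normalization (adjusted p = 0.0604, limma) and cyclic loess (adjusted p = 0.0583, limma). Without the variance trend both were lost (adjusted p = 0.118 and 0.226, limma).

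Of 6 listed genes of inter-alpha-inhibitor, whose heavy chains TNFAIP6 moves onto hyaluronan, 4 were tested. ITIH2 passed the threshold after CD64 6 h (88.6 and 128 against 21.7 and 39.1, 2.78-fold with 1 control array under the floor, adjusted p = 0.0461, limma), a call lost without 7 of the 10 single arrays and with the replicate number as a block (adjusted p = 0.0536). Of other pentraxins and ligands of PTX3 7 of 15 were tested. FCN1, a ficolin of monocytes, fell 2.24-fold after CD64 6 h (74.3 and 74.6 against 161 and 173, adjusted p = 0.0352, limma), a call lost without either control array or either CD64 6 h array.

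Between 2 h and 6 h of CD64, 3 of the 43 genes rose (TLR4, GFPT1 and EZR) and 3 fell (HMMR, C1QBP and UGP2), or 14.0% against 13.8% of all probe sets. These 6 calls became 3 without either CD64 2 h array and 1 without either CD64 6 h array. Between 2 h and 6 h of CD32 SPP1 rose and C1QBP fell, or 4.65% against 4.46%. These 2 calls became 0 without either CD32 2 h array or CD32 6 h replicate 2, and 1 without CD32 6 h replicate 1 or any 1 CD64 array. CD64 differed from CD32 in 7 of the 43 genes at 2 h (4 higher, 3 lower, beside 16.3% of all probe sets), and in 1 at 6 h (beside 17.6%). The 7 became 4 without any 1 array of these 2 groups. The 1 at 6 h, SRGN, was not called without either CD32 6 h array or CD64 6 h replicate 2, and 2 were called without CD64 6 h replicate 1.

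**Figure D4:**
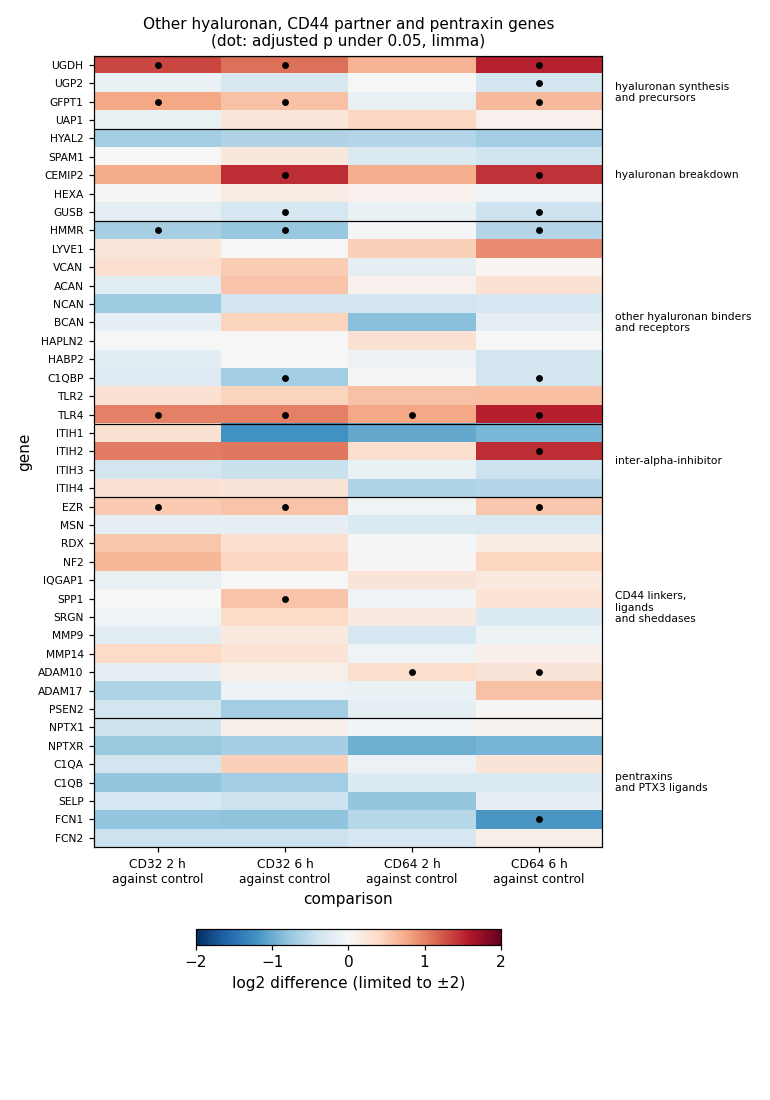
Log2 difference from control (colour, red higher and blue lower, limited to 2 in either direction) of the 43 tested genes of the 6 lists (rows) in the 4 comparisons with control (columns). A dot marks an adjusted p under 0.05 by limma: TLR4 has 4 dots, and UGDH, GFPT1, HMMR and EZR have 3 each, with none at CD64 2 h.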

How the data were processed

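RNA of 10 samples was measured on a 1-colour oligonucleotide array. The deposited values were linear signal intensity per probe set, scaled by the authors to a common trimmed mean. No software for that scaling is named in the labels. Symbols came from the platform annotation, updated through gene identifiers to RefSeq: of 8746 probe sets beside 47 controls, 7840 had 1 symbol, 388 several and 518 none. Tests covered the 7708 probe sets with 2 or more arrays over the floor. A model with 1 term per group was fitted to log2 values with limma 3.58.1 in R 4.3.3 (lmFit, eBayes with variance trend, two-sided, Benjamini-Hochberg over all tested). The threshold was an adjusted p under 0.05, and the step was tested on simulated data. The number of arrays limits the precision. A listed gene with several probe sets was represented by the brightest, and a fold against a group with both arrays under the floor is a lower bound. Named were the member probe sets, called list genes (up to 3 per list and direction) and the 5 genes most correlated with each member. HAS2 and the genes of comparisons between receptors or times were named outside that rule, after their values were seen. Members and lists were chosen with earlier results of these data known. Marker lists of T, B and epithelial cells were also set: their summed signal was 272 to 548, 167 to 559 and 308 to 672 over all arrays.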

Additional observations from a re-analysis of the deposited data

Results flagged for a closer look

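Between 2 h and 6 h the log2 difference of PTX3 was -0.66 for CD32 and 1.67 for CD64, with opposite signs on every array. The CD32 difference did not pass the threshold (adjusted p = 0.0767, limma), and 27% of all probe sets had both CD32 6 h arrays below both CD32 2 h arrays. PTX3 had been picked for its rise after CD64, and the difference between the receptors was not tested.

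GFPT1 differed between the receptors in its change from 2 h to 6 h, with a receptor by time interaction of 0.99 ± 0.218 SE on the log2 scale (adjusted p = 0.0149, limma). From 2 h to 6 h its log2 difference was -0.20 for CD32 (adjusted p = 0.564) and 0.79 for CD64 (adjusted p = 0.00666, limma). Both CD32 6 h arrays were below both CD32 2 h arrays, an order found in 27% of all probe sets tested.

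SRGN, the proteoglycan serglycin, a CD44 ligand, had an interaction of -0.91 ± 0.231 SE (adjusted p = 0.0274, limma). It read 7434 and 8128 in CD32 2 h and 10385 and 10863 in CD32 6 h, against 7940 and 11119 in CD64 2 h and 6073 and 7657 in CD64 6 h. The mean highest signal of the arrays moved in the same directions, from 27526 to 37486 for CD32 and from 30354 to 15202 for CD64. The part of this array difference in the SRGN result was not tested. The 2 genes were the calls among 43 list genes tested, beside 11.5% of all probe sets. Neither interaction was fitted again in the alternative runs. Over the runs with changed processing, the log2 difference of SRGN at CD64 6 h against control ran from -0.28 to 0.08.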

How the results depend on the processing

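The number of arrays, 2 per group, limits every comparison. No called difference of the 3 genes changed direction. Differences near 0 changed sign in 9 cases, 2 of them tested (TNFAIP6 between the CD32 times, -0.02 without CD32 2 h replicate 1 and -0.10 without CD32 6 h replicate 1). The cause of each change below was not tested. Values are log2 differences or numbers of called list genes, the latter without the share over all probe sets, which was not computed for these runs. Under quantile normalization TNFAIP6 at CD64 2 h against control was 0.81, PTX3 in that comparison 0.49, PTX3 from 2 h to 6 h of CD64 1.44, PTX3 for CD64 against CD32 -0.32 at 2 h and 1.70 at 6 h, and the list calls were 1 between the CD32 times and 3 between the CD64 times. Under cyclic loess the same PTX3 values were 0.46, 1.44, -0.33 and 1.64, CD44 by 204490_s_at was 0.43 between the CD32 times (adjusted p = 0.0364, limma) and -0.44 for CD64 against CD32 at 6 h, CD44 by 212063_at was 0.29 between the CD64 times, and 3 list genes were called there. A floor at the 10th percentile (10.8) gave TNFAIP6 3.71 and 3.81 at CD32 2 h and 6 h, 1.28 at CD64 2 h and 5.37 at CD64 6 h against control. Log2 of the signal plus 50 gave TNFAIP6 3.88 at CD64 6 h against control, 3.37 between the CD64 times and -1.84 for CD64 against CD32 at 2 h, and PTX3 1.72, 1.49 and, at 6 h between receptors, 1.63. Without the filter 4 list genes were called at CD64 2 h. At CD32 6 h UGDH and GFPT1 were not called without the filter (adjusted p = 0.0664 and 0.0510, limma). GFPT1 was not called there without the variance trend either (adjusted p = 0.0672, limma). Without the variance trend CD44 by 212063_at at CD32 2 h, 0.55, was not called (adjusted p = 0.0730, limma), and list calls were 1 at CD64 2 h, 6 at CD64 6 h, 0 between the CD32 times, 3 between the CD64 times, and 3 and 0 between receptors at 2 h and 6 h. With only the groups compared, calls were lost for TNFAIP6 (2.82 and 2.91), PTX3 at CD32 2 h (0.77) and CD44 by 212063_at (0.55 and 0.75), and list calls were 2, 0, 0 and 3 against control at CD32 2 h, CD32 6 h, CD64 2 h and CD64 6 h, 0 and 0 between times, and 3 and 0 between receptors.

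Leaving out 1 array at a time gave PTX3 at CD32 2 h 0.66 to 0.88, CD44 by 212063_at at CD32 2 h 0.46 to 0.65, TNFAIP6 at CD32 2 h 2.29 to 3.34, at CD32 6 h 2.38 to 3.44, at CD64 2 h -0.15 to 0.91 and at CD64 6 h 3.94 to 4.999. The list calls ranged over 3 to 6, 6 to 10, 1 to 3 and 4 to 11 against control in the order above, 0 to 3 and 1 to 8 between times, and 4 to 7 and 0 to 2 between receptors. Deviations of same-numbered arrays correlated at -0.14 to 0.28 over 10 pairs of groups. Of these, 3 exceeded 0.1, the 3 pairs among control, CD64 2 h and CD64 6 h (0.20, 0.25 and 0.28), so the arrays were not treated as paired throughout. With the replicate block TNFAIP6 at CD32 2 h was 2.82, the list calls were 5, 10, 2, 11, 2, 7, 6 and 1, no call of the 3 genes changed, and ITIH2 at CD64 6 h was lost (adjusted p = 0.0536, limma).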
